A study of Mus musculus with 12 samples.

Results

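In Treg that lacked Ikaros, 718 of the 118680 open chromatin regions of the series (0.605%) were more open than in WT Treg both ex vivo and after stimulation. The regions were chosen by their own read counts. Levels are in CPM, the reads on a region scaled to a common total of reads counted on all regions of the library. A region was taken when its highest group mean was at least 10 CPM, when the Ikzf1-cko mean was at least 1.5 times the WT mean in both states, and when in both states the lowest Ikzf1-cko library lay above the highest WT library. Of the 118680 regions, 26268 reached 10 CPM in at least 1 group, and the 718 regions are 2.73% of these. The reversed rule, with WT above Ikzf1-cko, took 706 regions (2.69%). The difference between genotypes is therefore the rule itself, and it is described below without a test.

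ATAC-seq reads the places where Tn5 transposase can insert into DNA, that is, where chromatin is accessible. YFP+ Treg, which the labels place in the spleen, were sorted from WT mice (Foxp3-YFP-Cre) or Ikzf1-cko mice (Ikzf1-fl-Foxp3-YFP-Cre), in which Cre made under Foxp3 deletes floxed Ikzf1. All mice of both genotypes thus carried the Foxp3-YFP-Cre allele, and deletion is limited to cells that have expressed Foxp3. The cells were used directly ex vivo or after 4 hr on plate-bound anti-CD3 and anti-CD28, and 3 libraries of 100000 cells each were made for each of the 4 groups. The age of the mice of these libraries is not given in the sources used here. The methods call the 3 libraries of a group biological replicates without saying whether they came from separate mice, so that p-values measure the spread between these libraries, which may be technical. The libraries are bulk samples, so that a region open in more of the cells and a region more open in each cell cannot be told apart.

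Ikaros, the product of Ikzf1, is a zinc finger factor of lymphocytes that binds DNA at a GGGAA core and recruits both repressive and activating chromatin complexes. Rbpj, the DNA-binding effector of Notch, recognizes an overlapping TGGGAA sequence. AP-1, NFAT and NF-kB are the factors through which T cell receptor and costimulatory signals reach enhancers, and in effector Treg they act at genes for inhibitory receptors and for interleukin-10.

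The central 300 bases of 9 of the 718 regions are printed below in the order of the motifs they hold, because these are regions at genes for Treg effector function and for Notch and NF-kB signaling that recur in the results, together with regions that had a large ratio between genotypes. The sequences are the + strand of the mm9 reference (NCBIM37), 5′ to 3′, and none of the windows overlaps an annotated exon. Capitals mark matches on either strand to the AP-1 letters TGANTCA, the Ikaros core GGGAA, which reads as its reverse complement where it lies on the other strand, and the NF-kB letters, which are GGGA and TTCC with any 2 bases between. The name of the gene is that of the nearest protein-coding start site.
OCR_95743, Bhlhe40, chr6:108654612-108654911: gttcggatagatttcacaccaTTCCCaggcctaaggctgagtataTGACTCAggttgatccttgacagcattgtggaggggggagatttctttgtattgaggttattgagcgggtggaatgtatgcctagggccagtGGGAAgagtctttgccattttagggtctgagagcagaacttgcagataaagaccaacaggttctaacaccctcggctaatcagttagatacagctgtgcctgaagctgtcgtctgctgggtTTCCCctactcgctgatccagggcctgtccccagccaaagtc
OCR_110208, Maf, chr8:118266589-118266888: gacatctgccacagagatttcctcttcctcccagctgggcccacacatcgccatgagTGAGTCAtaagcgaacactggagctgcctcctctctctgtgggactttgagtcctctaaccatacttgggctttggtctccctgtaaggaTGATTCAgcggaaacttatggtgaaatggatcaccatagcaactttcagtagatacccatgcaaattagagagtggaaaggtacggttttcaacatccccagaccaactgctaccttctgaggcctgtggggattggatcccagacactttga
OCR_77735, Bach2, chr4:32213747-32214046: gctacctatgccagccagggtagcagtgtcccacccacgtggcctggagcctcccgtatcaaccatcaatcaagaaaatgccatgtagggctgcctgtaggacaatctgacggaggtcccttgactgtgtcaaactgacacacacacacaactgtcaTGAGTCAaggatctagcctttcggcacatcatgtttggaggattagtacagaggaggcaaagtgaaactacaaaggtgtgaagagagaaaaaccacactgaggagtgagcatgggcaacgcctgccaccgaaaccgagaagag
OCR_46359, Nfkbiz, chr16:55734516-55734815: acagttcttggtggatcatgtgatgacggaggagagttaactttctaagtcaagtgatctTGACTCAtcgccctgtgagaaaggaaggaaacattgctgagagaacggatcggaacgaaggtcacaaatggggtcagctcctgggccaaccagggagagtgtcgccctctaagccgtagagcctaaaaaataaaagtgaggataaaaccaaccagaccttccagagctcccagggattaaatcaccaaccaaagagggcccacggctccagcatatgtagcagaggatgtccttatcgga
OCR_86120, Rbpj, chr5:53805005-53805304: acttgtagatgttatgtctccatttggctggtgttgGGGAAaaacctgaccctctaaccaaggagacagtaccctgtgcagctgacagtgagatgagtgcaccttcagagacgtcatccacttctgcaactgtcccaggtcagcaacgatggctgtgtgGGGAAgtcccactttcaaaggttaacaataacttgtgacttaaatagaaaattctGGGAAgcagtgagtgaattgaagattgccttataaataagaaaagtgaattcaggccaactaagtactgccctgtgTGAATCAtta
OCR_14204, Poc1b, chr10:98544391-98544690: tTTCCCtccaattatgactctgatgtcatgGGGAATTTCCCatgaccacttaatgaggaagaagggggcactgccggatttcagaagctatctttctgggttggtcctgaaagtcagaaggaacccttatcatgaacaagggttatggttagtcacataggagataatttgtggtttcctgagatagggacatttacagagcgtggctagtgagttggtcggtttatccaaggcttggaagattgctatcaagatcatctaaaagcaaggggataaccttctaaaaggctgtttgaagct
OCR_4954, Il10, chr1:132899814-132900113: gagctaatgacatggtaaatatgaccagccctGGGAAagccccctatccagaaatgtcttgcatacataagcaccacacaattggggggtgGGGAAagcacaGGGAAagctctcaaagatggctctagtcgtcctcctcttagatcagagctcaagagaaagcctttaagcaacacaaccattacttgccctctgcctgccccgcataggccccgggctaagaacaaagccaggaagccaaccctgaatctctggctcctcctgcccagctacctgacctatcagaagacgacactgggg
OCR_45690, Tigit, chr16:43661689-43661988: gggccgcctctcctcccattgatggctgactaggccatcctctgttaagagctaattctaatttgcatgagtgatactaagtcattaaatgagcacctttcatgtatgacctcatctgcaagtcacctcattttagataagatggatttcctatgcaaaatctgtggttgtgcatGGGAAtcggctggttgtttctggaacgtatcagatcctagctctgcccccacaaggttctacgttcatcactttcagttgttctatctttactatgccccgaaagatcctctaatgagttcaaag
OCR_32818, Map3k1, chr13:112770452-112770751: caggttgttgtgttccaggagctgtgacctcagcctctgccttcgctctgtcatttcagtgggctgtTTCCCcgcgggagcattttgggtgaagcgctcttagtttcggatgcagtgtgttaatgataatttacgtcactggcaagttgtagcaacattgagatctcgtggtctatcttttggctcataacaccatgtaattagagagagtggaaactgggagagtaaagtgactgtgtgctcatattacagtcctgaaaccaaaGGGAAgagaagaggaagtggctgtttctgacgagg
The windows at Bhlhe40, Maf, Bach2, Nfkbiz and Rbpj hold AP-1 letters, and the window at Maf holds them 2 times. The window upstream of Rbpj holds the core 3 times, 1 of them inside TGGGAA. The window near Poc1b holds overlapping matches to the NF-kB letters, which also contain the core on both strands. The window at Il10 holds the core 3 times and no AP-1 letters.

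In percentage points, AP-1 letters were the motif whose share stood furthest from that of the tested regions. The letters TGANTCA occurred in the central 300 bases of 239 of the 718 regions (33.3%), of 13.8% of the 69957 regions that passed the filter for testing, of 12.9% of the 26268 regions of at least 10 CPM and of 9.49% of the 706 regions of the reversed rule. They occurred at least 2 times in 36 of the 718 regions (5.01%) and in 1.58% of the tested regions. Motif content was not used by the rule, but regions are not replicates and motifs follow base composition, so that the shares are given as a description. Away from start sites the AP-1 share was 35.9% of 641 regions against 18.9% of the other 13862 regions of at least 10 CPM. Among these, in windows with 40 to 45% GC, it was 36.5% of 178 against 24.5%, in those with 45 to 50% GC 40.3% of 206 against 21.3%, and in those with 50 to 55% GC 35.0% of 143 against 17.3%.

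The Ikaros core GGGAA was found in 462 of the 718 windows (64.3%), in 59.3% of the tested regions and in 60.1% of those of at least 10 CPM, since 5 letters occur often in any 300 bases. Away from start sites and within the same bands of GC it was found in 56.2% against 53.0%, 63.6% against 56.8% and 73.4% against 63.6% of the other regions of at least 10 CPM. The extended TGGGAA, every match of which is also a match to GGGAA, was found in 29.4%, against 22.4% of tested regions and 20.1% of regions of at least 10 CPM, and within the bands of GC in 27.5% against 18.6%, 25.2% against 21.2% and 38.5% against 25.1%. NFAT letters (TGGAAA) were found in 32.6% against 21.4% of tested regions, and NF-kB letters (GGGA and TTCC, 2 bases apart, which can overlap GGGAA) in 42 windows, 5.85% against 1.90%, which as a ratio is more than that of AP-1. Within the bands of GC, NFAT letters were found in 33.1% against 29.4%, 36.9% against 26.3% and 32.9% against 22.9%, and NF-kB letters in 6.74% against 2.20%, 4.37% against 2.47% and 7.69% against 2.59%. ISRE letters (GAAA at 2 places, 2 bases apart), bound by interferon regulatory factors, were found in 7.66% against 4.26%, GATA letters (AGATAA) in 17.5% against 12.1%, STAT letters (TTCNNNGAA) in 12% against 8.32% and RUNX letters (TGTGGTT) in 13.1% against 9.70%. These 4 differences did not hold in every band of GC. At 40 to 45% ISRE letters were in 8.43% against 8.90%, at 45 to 50% RUNX letters in 13.6% against 16.2%, and at 50 to 55% GATA letters in 7.69% against 11.2% and STAT letters in 9.09% against 9.89%. Lower shares than in the tested regions were those of the CTCF core, 5.85% against 13.5%, of KLF/SP letters (GGGCGGG), 7.66% against 13.4%, and of ETS letters (CCGGAAG), 3.06% against 4.84%. Within the bands of GC the CTCF core was in 2.81% against 5.31%, 3.88% against 8.0% and 7.69% against 10.8%. The lower shares of KLF/SP and ETS letters did not hold in every band. KLF/SP letters were in 8.39% against 7.82% at 50 to 55%, and ETS letters in 2.25% against 1.81% at 40 to 45%. The shares of T-box (GGTGTGA), TCF/LEF (CTTTGAT), forkhead (GTAAACA) and E-box (CACGTG) letters were between 5.15% and 6.82% and lay within 1.74 percentage points of the tested regions. A match to such short letters is not a binding site. The windows were also less rich in GC, with a median of 47.7% against 51.3% in tested regions and 54.7% in regions of at least 10 CPM.

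**Figure D1:**
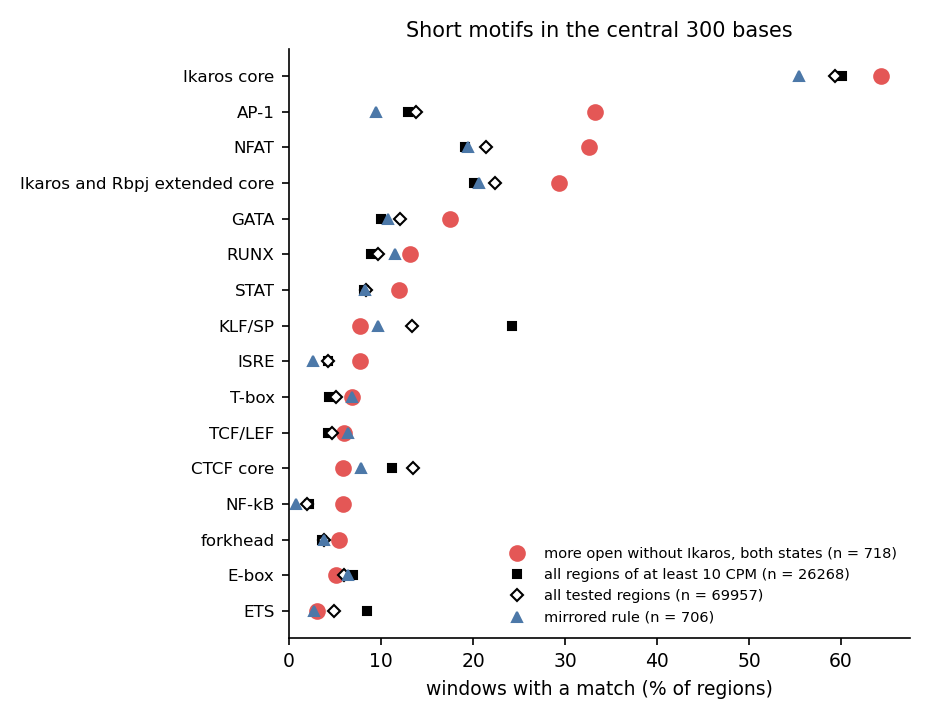
Share of regions (%) whose central 300 bases hold the letters of each motif on either strand, for the 718 regions more open without Ikaros (red circles), all regions of at least 10 CPM (black squares), all tested regions (white diamonds) and the reversed rule (blue triangles, labelled mirrored rule). AP-1 letters stand at 33.3% of the 718 regions and at 13.8% of tested regions, whereas the Ikaros core stands at 64.3% and 59.3%.

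The 718 regions took 0.863 to 0.929% of the reads in the 3 ex vivo WT libraries and 1.49 to 1.67% in the 3 ex vivo Ikzf1-cko libraries. After stimulation they took 0.649 to 0.708% in WT and 1.28 to 1.37% in Ikzf1-cko. The median region had 9.43, 10.2 and 10.2 CPM in ex vivo WT Treg and 18.5, 18.8 and 16.6 CPM in ex vivo Ikzf1-cko Treg. After stimulation the median region had 7.44, 8.22 and 7.90 CPM in WT and 14.2, 15.0 and 15.2 CPM in Ikzf1-cko. The Ikzf1-cko libraries of either state were thus above all 6 WT libraries. Stimulated Ikzf1-cko Treg had a higher mean than ex vivo WT Treg at 678 of the 718 regions (94.4%), and at 579 of them every stimulated Ikzf1-cko library was above every ex vivo WT library. Both counts follow in large part from the ratio that the rule set ex vivo. The stimulated WT mean was the lowest of the 4 at 593 regions.

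**Figure D2:**
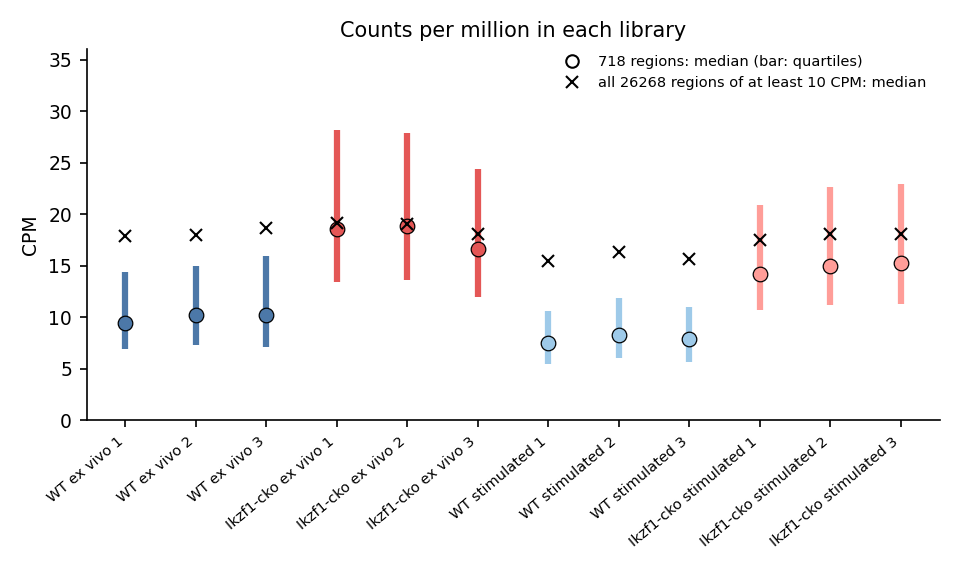
CPM in each of the 12 libraries, with circles for the median and bars for the quartiles of the 718 regions, and crosses for the median of all 26268 regions of at least 10 CPM. The medians of the 718 regions lie between 7.44 and 10.2 CPM in the WT libraries and between 14.2 and 18.8 CPM in the Ikzf1-cko libraries, whereas the crosses lie between 15.4 and 19.1 CPM.

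The median ratio of Ikzf1-cko to WT was 1.73 ex vivo (quartiles 1.60 and 1.93) and 1.90 after stimulation (quartiles 1.70 and 2.15), or 0.79 and 0.92 on the log2 scale. The regions of at least 10 CPM as a whole had log2 medians of 0.07 and 0.24. A ratio of 2 or more was reached at 152 regions ex vivo, at 267 after stimulation and at 84 in both states, and a ratio of 3 or more in both states at 4 regions. The ratio was larger after stimulation at 457 regions (63.6%), with a median difference of 0.10 on the log2 scale (quartiles -0.07 and 0.29), beside a median difference of 0.16 over all regions of at least 10 CPM. This order depended on scaling. With offsets that set regions of each abundance to a common median in every library, the log2 medians of the 718 regions were 0.80 ex vivo and 0.78 after stimulation. The rule was not equally strict in the 2 states. Its ex vivo condition alone took 1058 regions (4.03% of those of at least 10 CPM) and its stimulated condition 4079 (15.5%), so that the 718 regions are 67.9% of the former and 17.6% of the latter.

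**Figure D3:**
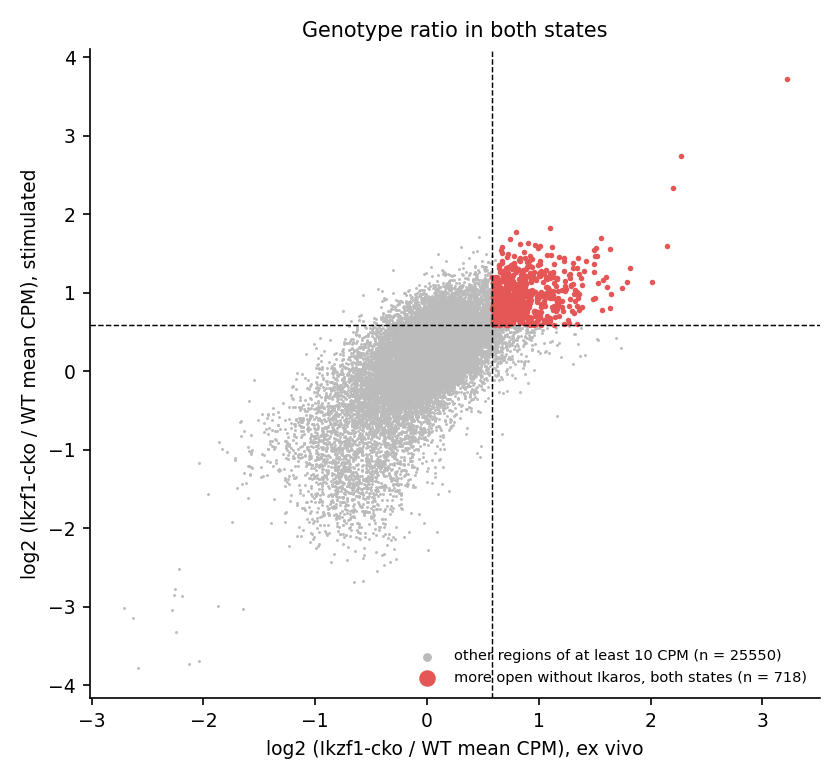
Log2 ratio of Ikzf1-cko to WT mean CPM ex vivo (x axis) and after stimulation (y axis) for the 718 regions (red) and all other regions of at least 10 CPM (gray), with dashed lines at a ratio of 1.5. Most red points crowd near the lines, with medians of 0.79 and 0.92, and few lie beyond a ratio of 4.

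The thresholds cut through a continuum. At the fold of 1.5, OCR_28268 near Hist1h2bj (chr13:22142296-22143369) was just inside with ratios of 1.5001 ex vivo and 1.74 after stimulation, and OCR_37580 near Tbc1d4 (chr14:102007053-102008652) just outside with 1.4991 and 1.80. At the level of 10 CPM, OCR_63061 near Gcg (chr2:62301365-62302445) was inside with a highest group mean of 10.01 CPM, and OCR_112669 near Gramd1b (chr9:40231736-40232358) outside with 9.997 CPM.

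The largest ratios of all belonged to regions that match the mitochondrial genome. OCR_759 and OCR_758 lie side by side at the gene model Gm10222 (chr1:24619838-24620087 and chr1:24619247-24619705), and match mitochondrial DNA over their whole length with 99.6% and 99.8% identity. OCR_759 had 11.9, 5.17 and 4.42 CPM in ex vivo WT against 62.0, 60.6 and 77.4 CPM in ex vivo Ikzf1-cko libraries, and after stimulation 4.46, 4.75 and 6.24 against 67.0, 72.4 and 64.8 CPM. The ratios were 9.30 and 13.2. OCR_758 had ratios of 4.84 and 6.66. Reads of mitochondrial DNA and of this chromosomal copy cannot be told apart here, so that these 2 regions stand apart from the other 716.

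Among the other regions, the largest ratio in both states lay over the start site and first exon of Ctnnd1, which encodes p120 catenin, a partner of cadherins (OCR_64204, chr2:84490559-84491260). It had 4.62, 3.58 and 2.33 CPM in ex vivo WT and 18.4, 15.3 and 14.7 CPM in ex vivo Ikzf1-cko Treg. After stimulation it had 2.81, 2.01 and 2.70 against 12.9, 13.0 and 12.1 CPM. The region was thus close to closed in all 6 WT libraries and open in all 6 Ikzf1-cko libraries, with ratios of 4.61 and 5.06. An intergenic region 171 kb upstream of Map3k1, a kinase of the JNK pathway, followed by the smaller of the 2 ratios, the measure that orders these regions (OCR_32818, chr13:112770406-112770797). It had 3.27, 3.18 and 2.44 against 14.1, 13.7 and 11.5 CPM ex vivo and 1.82, 3.11 and 1.46 against 6.18, 6.51 and 6.54 CPM after stimulation. Its sequence, printed above, holds the Ikaros core at 2 places. By the same measure the next regions were OCR_14204, intergenic and 24.8 kb from Poc1b (chr10:98544193-98544888), with ratios of 3.11 and 2.94, and OCR_84829 in an intron of Atg9b (chr5:23895148-23895479), with 2.93 and 3.23.

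Of the 5 regions with the highest CPM, 4 lay over start sites. OCR_36396 over the start site of Slc25a37, the mitochondrial iron importer mitoferrin (chr14:69902187-69903502), had 62.9, 62.7 and 69.4 CPM in ex vivo WT and 117, 154 and 162 CPM in ex vivo Ikzf1-cko Treg, with ratios of 2.22 ex vivo and 2.28 after stimulation. The others, over start sites of Dfnb59 and Prkra, of Bivm and Kdelc1 and of Tmtc3, and in an intron of Plcl2, had ratios of 1.55 to 1.64 ex vivo and 1.67 to 2.26 after stimulation. Regions at start sites were few, however, since 77 of the 718 (10.7%) lay within 1 kb of a protein-coding start site, against 44.8% of the regions of at least 10 CPM and 22.7% of the tested regions. Introns held 336 (46.8%), intergenic DNA 255 (35.5%) and exons 50 (6.96%). The median distance to the nearest start site was 21.2 kb, against 3.12 kb for regions of at least 10 CPM and 26.5 kb for the 706 regions of the reversed rule, which were also mostly far from start sites. The median ratio of these classes was 1.72 to 1.78 ex vivo. After stimulation it was 1.78 at start sites and 1.90 to 1.93 in exons, introns and intergenic DNA.

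Genes of effector Treg had 17 of the 718 regions as nearest start site, from 9 of the 26 genes listed, and none of the reversed rule. The 17 are 11.1% of the regions of at least 10 CPM at these genes, beside 2.73% of all regions of that level. The gene lists were drawn up with results of these data known, and the counts are a description. Il10, the gene of the suppressive cytokine interleukin-10, had 3 regions. The region 16.1 kb upstream (OCR_4954, chr1:132899571-132900355) had 10.0, 13.2 and 14.5 CPM in ex vivo WT and 31.5, 35.2 and 28.2 CPM in ex vivo Ikzf1-cko, and 7.11, 9.50 and 10.2 against 15.6, 17.2 and 16.9 CPM after stimulation. Its ratio was 2.51 ex vivo and 1.86 stimulated, and stimulated Ikzf1-cko Treg were still above ex vivo WT Treg in every library. The region inside the gene (OCR_4959, chr1:132919094-132919890) had ratios of 1.88 and 1.57, and the one 25.6 kb upstream 1.53 and 1.83.

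Bhlhe40, a helix-loop-helix repressor that T cells switch on when activated, had 4 regions, 1 just upstream of the gene and the others 27.2, 43.4 and 48.5 kb downstream of the start site. The strongest (OCR_95741, chr6:108638045-108639127) had 37.7, 37.1 and 39.4 CPM in ex vivo WT and 68.8, 71.3 and 62.2 CPM in ex vivo Ikzf1-cko. After stimulation it had 20.5, 19.7 and 17.3 against 40.2, 39.3 and 44.5 CPM. The groups were apart in both states, and the stimulated Ikzf1-cko libraries overlapped the ex vivo WT libraries. The region printed above (OCR_95743, chr6:108654296-108655227), which holds AP-1 letters and the core, had ratios of 1.96 and 2.01.

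Tigit, an inhibitory receptor of effector Treg, had 3 regions. In an intron (OCR_45690, chr16:43661627-43662049) CPM were 8.66, 10.1 and 10.0 in ex vivo WT and 23.8, 22.8 and 16.3 in ex vivo Ikzf1-cko, and 3.97, 6.58 and 6.45 against 14.7, 12.9 and 13.2 after stimulation. The regions 36.5 and 37.6 kb upstream had ratios of 2.98 and 2.31 in stimulated Treg, larger than their 2.17 and 1.60 ex vivo. A single region 27.7 kb upstream of Ahr, the aryl hydrocarbon receptor (OCR_23263, chr12:36247418-36248079), had 15.0, 15.0 and 16.2 against 30.0, 28.9 and 23.2 CPM ex vivo and 5.46, 8.59 and 7.28 against 19.7, 22.8 and 22.9 CPM after stimulation. Its ratio was 1.78 ex vivo and 3.07 after stimulation, and in both genotypes the stimulated libraries lay below the ex vivo libraries. Klrg1, an inhibitory receptor of terminally differentiated T cells, had 2 neighbouring regions 10.9 and 11.5 kb upstream with ratios of 1.91 to 2.18. Single regions lay near Maf, a factor that drives Il10 (2.23 and 1.87), Nfil3 (1.80 and 2.07) and Icos, a costimulatory receptor (1.73 and 1.92), and 81.8 kb from Irf4, a factor of effector Treg, in an intron of Exoc2 (1.68 and 1.86).

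**Figure D4:**
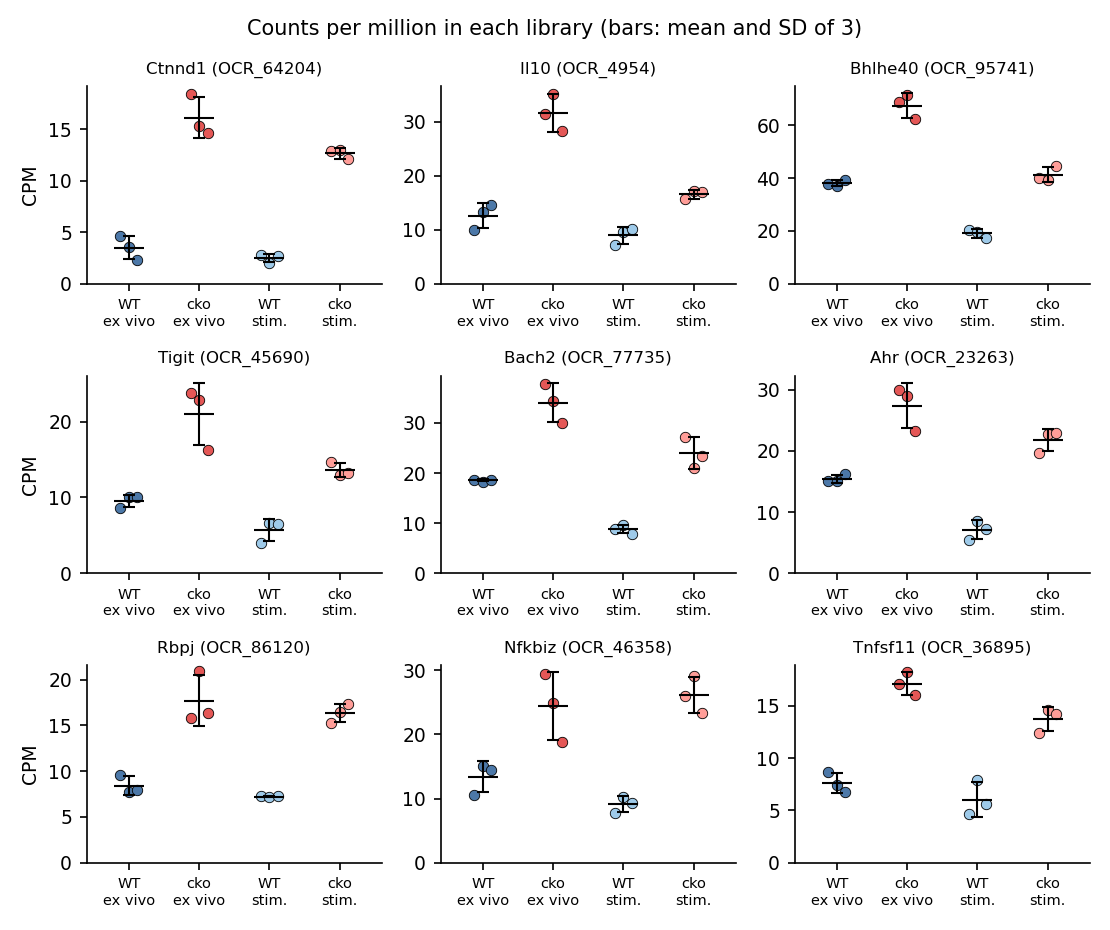
CPM of 9 of the regions in each library (points), with the mean and SD of 3 libraries per group (black), each panel headed by the nearest gene and starting at 0. In every panel all Ikzf1-cko points lie above the WT points of the same state. In those of Bhlhe40, Tigit, Bach2 and Ahr all points are lower after stimulation than ex vivo within each genotype.

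The inhibitory receptors as a list had 10 regions, at 4 of 13 genes, which is 17.9% of their 56 regions of at least 10 CPM. Besides Tigit and Klrg1, whose regions were also counted for effector Treg, these were Pdcd1, which encodes PD-1, and Ctla4. The gene lists share genes, so that a region can be counted in more than 1 list and the shares are not separate observations. The 3 regions of Pdcd1 lie within 5.25 kb inside the gene (chr1:95943082-95948333) and are all 3 regions of at least 10 CPM in that span. The middle region (OCR_3841) had 9.62, 12.5 and 9.54 against 18.6, 19.1 and 16.2 CPM ex vivo and 6.28, 6.39 and 6.86 against 15.6, 14.6 and 15.4 CPM after stimulation, with ratios of 1.71 and 2.33. Ctla4 had a region in the gene (OCR_2127, chr1:60970020-60970573), with 31.4, 29.7 and 35.2 against 48.5, 58.4 and 49.1 CPM ex vivo and 15.2, 18.6 and 12.7 against 27.5, 28.1 and 29.2 CPM after stimulation, and a second 11.0 kb downstream of its start site. Both fell with stimulation in the test described below, by 0.96 and 0.76 on the log2 scale.

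Genes of naive and central Treg had 4 regions at 2 of 14 genes, or 2.08% of their 192 regions of at least 10 CPM beside 2.73% of all regions of that level, and 2 regions of the reversed rule. Bach2, a repressor that occupies AP-1 sites and holds T cells in a less differentiated state, had 3 regions, 20.5 to 111 kb upstream. The farthest (OCR_77735, chr4:32213452-32214341), whose window holds AP-1 letters, had 18.7, 18.3 and 18.7 against 37.8, 34.4 and 30.0 CPM ex vivo and 8.93, 9.68 and 7.90 against 27.3, 21.0 and 23.5 CPM after stimulation. Its ratio was 1.84 ex vivo and 2.71 after stimulation. An intronic region 101 kb inside Bcl2, the survival factor (OCR_4209, chr1:108508828-108509804), had among the largest differences between states, with ratios of 1.59 and 2.98. Its CPM were 16.9, 19.5 and 21.9 against 29.0, 31.3 and 32.4 ex vivo and 9.26, 15.3 and 10.6 against 33.1, 30.9 and 40.9 after stimulation. Stimulation thus left Ikzf1-cko near its ex vivo level while WT libraries were lower than theirs ex vivo. OCR_80037 near Gm13283 (1.67 and 3.20) and OCR_111684 near Endod1 (1.74 and 3.40) were the 2 regions with larger differences. The opposite order was largest at OCR_60122 in an intron of Celf2 (4.03 and 2.20), OCR_63760 near Nfe2l2 (3.12 and 1.75) and OCR_36886 upstream of Tnfsf11 (2.96 and 1.71).

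Few regions lay at genes of cytokine signaling. An intronic region of Stat4, a transcription factor of interleukin-12 signaling (OCR_1621, chr1:52091575-52092599), named after its values were seen, had 9.04, 9.80 and 9.54 against 17.1, 16.1 and 14 CPM ex vivo and 5.79, 5.85 and 6.65 against 11.1, 9.16 and 11.6 CPM after stimulation. The genotypes were apart in both states, with ratios of 1.66 and 1.74. Il18rap, a subunit of the interleukin-18 receptor, had an intronic region (OCR_1305, chr1:40585701-40587086) with ratios of 2.07 and 1.81. The list of the interleukin-2 receptor and STAT5 had none of the 718 regions among its 60 regions of at least 10 CPM, and 1 of the reversed rule. Proximal T cell receptor signaling had none among 90. At the share of 2.73% of all regions of that level, lists of this size would hold few, so that these counts say little about the genes.

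In the Notch list, 5 of the 60 regions of at least 10 CPM (8.33%, beside 2.73% of all) were among the 718, and they belonged to Rbpj and to Maml3, a coactivator of the Notch complex. Rbpj had a region over its start site (ratios of 1.62 and 1.93) and a group of regions 125 to 142 kb upstream. Of the latter, OCR_86120 (chr5:53804812-53805497) had 9.62, 7.68 and 7.91 against 15.8, 20.9 and 16.4 CPM ex vivo and 7.28, 7.13 and 7.28 against 15.3, 16.5 and 17.3 CPM after stimulation. Its counts were nearly the same in both states within each genotype. The intronic OCR_71282 of Maml3 had ratios of 2.13 and 2.04. The list of Wnt and catenin genes had 3 of its 63 regions of at least 10 CPM among the 718 (4.76%) and 2 in the reversed rule. Beside Ctnnd1, Wisp1, a secreted protein induced by Wnt, had a region over its start site with ratios of 2.62 and 2.14 (OCR_41118, chr15:66722411-66723351).

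The list of TNF ligands and receptors had 7 of its 105 regions of at least 10 CPM among the 718 (6.67%, beside 2.73% of all) and none in the reversed rule. All 7 lay at ligand genes and none at the receptors listed. Tnfsf8, Tnfsf10 and Cd40lg had 1 each with ratios of 1.52 to 1.84, and 4 lie upstream of Tnfsf11, which encodes RANKL. The farthest of them (OCR_36895, chr14:78819740-78820797) had 8.66, 7.42 and 6.75 against 17.1, 18.2 and 16 CPM ex vivo and 4.63, 7.86 and 5.61 against 12.4, 14.6 and 14.2 CPM after stimulation. Nfkbiz, a nuclear regulator of NF-kB target genes, had 3 regions 74.0 to 87.9 kb downstream. Among them OCR_46358 (chr16:55733784-55734339) was among the 158 regions with their highest mean in stimulated Ikzf1-cko Treg, with 10.6, 15.0 and 14.5 against 29.4, 24.9 and 18.8 CPM ex vivo and 7.77, 10.2 and 9.36 against 26.0, 29.0 and 23.3 CPM after stimulation. Its ratio was 1.82 ex vivo and 2.86 after stimulation. OCR_8543, 2.67 kb upstream of the AP-1 family gene Atf3, had ratios of 1.78 and 2.26. OCR_56484 in an intron of Smad4, the common mediator of TGF-beta signals (chr18:73853011-73854069), had 3.05 and 2.11, with 20.4, 21.7 and 9.66 CPM in the ex vivo Ikzf1-cko libraries, so that 1 library was below the others but above the WT values of 4.19 to 7.89 CPM.

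The 718 regions had 562 different nearest genes, and 455 of these genes had a single region. Along the chromosomes, 416 regions stood alone, 168 lay in 46 runs of at least 3 with gaps of at most 100 kb, and 18 runs held at least 4. The longest run had 8 of the 10 regions of at least 10 CPM in 141 kb at Nol10 and Odc1, the first enzyme of polyamine synthesis (chr12:17373827-17514592), with ratios of 1.63 to 2.45 ex vivo and 1.63 to 2.76 after stimulation. A run of 7 of 21 such regions lay at Wisp1, Sla and Tg (chr15:66534098-66723351), where Sla is an adaptor that dampens T cell receptor signals. A run of 6 of 16 lay at Utrn, Plagl1 and Stx11, a syntaxin of cytotoxic granule release (chr10:12540916-12777227), and reached into Utrn. Runs of 5 lay at Atxn7l1, at Celf2 and at Diap1. Runs of 4 included those at Ier5 and Stx6, Tnfsf11, St3gal1, Cd47, Myo3b, Rbpj, Rest and Hopx, Ptpn13, Creb3l2 and Dgki, Bhlhe40, and Klrg1. The run at Creb3l2 and Dgki held all 4 regions of at least 10 CPM in its span, and that at Cd47 4 of 7.

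The 28 runs of 3 held further named loci. Myc, the regulator of growth, was the nearest gene of 6 regions, the most of any gene, in 2 runs over Pvt1 (chr15:61813034-61875906 and chr15:61976510-62072091), with ratios of 1.57 to 2.20 ex vivo. At Pdcd1, Nfkbiz, Ccdc148, Ppp4r2, Etv6 and Cyfip1, the 3 regions of the run were all the regions of at least 10 CPM in its span. Other runs of 3 lay at Ctla4 and Icos, Il10, Nek7, Mpzl1 and Rcsd1, Hbs1l, Slc25a37 and Entpd4, Trps1, Fer1l6 and Tmem65, Tigit, Nrip1, Tnfaip8, Malt1 and Alpk2, Dapp1, Bach2, Rgs3, Nfia, Vgll4 and Atg7, Akap13, and Hmgb2 and Galnt7. Of the chromosomes, 1 and 10 held 61 of the 718 regions each, and chromosome 18 the most per region of at least 10 CPM, 5.09 per 100. Chromosome 11, on which Ikzf1 lies, held 12 (0.745 per 100), and chromosome X 11 (2.13 per 100).

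Stimulation was a comparison that the rule did not make directly. The level of 10 CPM, however, was taken on the highest group mean, in ex vivo Ikzf1-cko at 560 regions and in stimulated Ikzf1-cko at 158. The change with stimulation is therefore not wholly independent of the rule. Stimulation was tested as the change averaged over both genotypes, by the quasi-likelihood test of edgeR with Benjamini-Hochberg adjustment over 69957 regions. A region was called at an FDR below 0.05 with a log2 fold change beyond 1 in either direction. All 718 regions passed the filter, which 3 Ikzf1-cko libraries can fulfil on their own. Past both thresholds, 17 of the 718 fell with stimulation (2.37%), where 0.673% of all tested regions and 1.24% of those of at least 10 CPM fell. None rose, where 11.3% of all tested regions rose, but 1.72% of those of at least 10 CPM, the closer background in level. In class that background differs, with 44.8% at start sites against 10.7% of the 718 regions. Among the 718 the median change was -0.18 at start sites and -0.40 in introns. A background matched for class was not tested, so that the differences below may in part be those of class. No region of the 718 had a rise over the fold threshold even at an unadjusted p under 0.05, 47 rose at that p without the fold threshold, and a Wald test in DESeq2 also called 0 rises and 22 falls. At FDR under 0.05 alone, 427 fell (59.5%) and 39 rose (5.43%), beside 43.4% that fell and 19.1% that rose among regions of at least 10 CPM, and 23.0% and 30.2% among all tested regions. The median log2 fold change was -0.34 (quartiles -0.55 and -0.13) in the 718 regions, -0.14 in regions of at least 10 CPM and 0.05 in all tested regions. The 706 regions of the reversed rule had a median of 0.22.

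Within each genotype the direction was the same, although these changes share libraries with the rule and are not independent of it. In Ikzf1-cko Treg the median was -0.28, against -0.04 for regions of at least 10 CPM, and 339 regions fell at FDR under 0.05 (47.2%, against 22.0%, and 11.5% of all tested regions) while 34 rose (4.74%, against 15.4% and 12%). In WT Treg the median was -0.39, against -0.23, and 339 regions also fell (47.2%, against 42.8% and 20.7%) while 17 rose (2.37%, against 14.5% and 26.9%). The share that fell in WT was thus close to its background. In both genotypes 253 regions fell (35.2%, against 18.0%). Past the fold threshold as well, 15 regions fell in Ikzf1-cko (2.09%, against 0.845%, and 0.632% of all tested regions). No region rose there by edgeR or DESeq2, where 0.647% and 3.02% of these backgrounds rose, and 50 rose at an unadjusted p under 0.05. In WT 42 fell (5.85%, against 4.47% and 2.32%). No region rose there by either tool, where 3.11% and 17.7% rose, and 21 rose at an unadjusted p under 0.05. The share of reads on regions of at least 10 CPM was lower after stimulation, 61.1 to 64.5% in WT against 71.3 to 75.3% ex vivo. In Ikzf1-cko it was 73.5 to 76.6% against 75.7 to 78.2%. With offsets that set regions of each abundance to a median near 0 in every library, the median of the 718 regions was -0.22 and 6 fell past both thresholds in place of 17, while 340 fell (47.4%, against 28.8% of regions of at least 10 CPM) and 70 rose (9.75%, against 29.8%) at FDR alone. In WT alone these offsets moved the median from -0.39 to -0.19, the falls at FDR alone from 339 to 192 (26.7%, against 23.4% of regions of at least 10 CPM), the rises from 17 to 41 (5.71%, against 26.0%) and the falls past both thresholds from 42 to 10. In Ikzf1-cko the median was -0.24 and 313 regions fell at FDR alone (43.6%, against 19.9%).

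**Figure D5:**
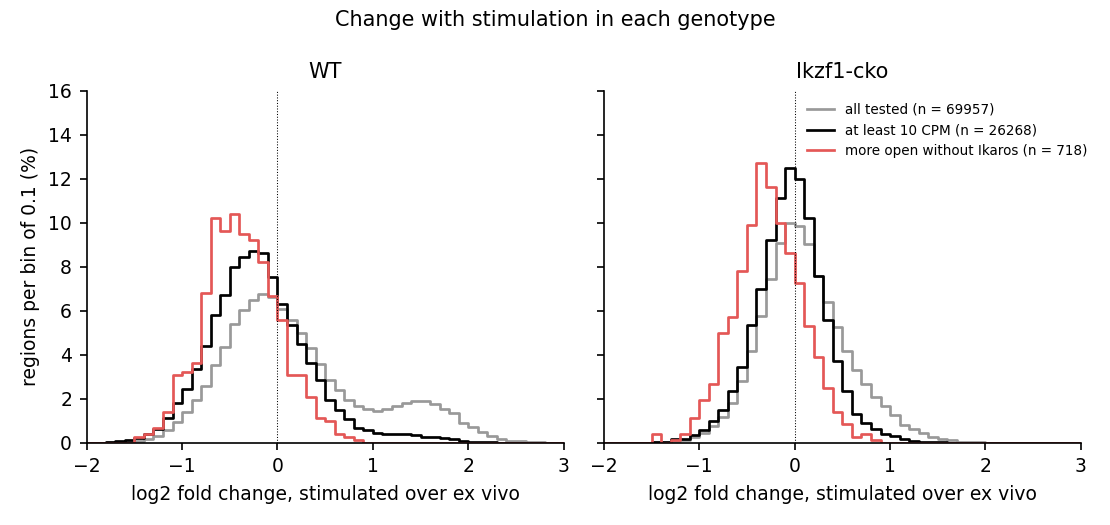
Distribution of the log2 fold change of stimulated over ex vivo Treg in WT (left) and Ikzf1-cko (right), as the percentage of regions per bin of 0.1, for the 718 regions (red), all regions of at least 10 CPM (black) and all tested regions (gray). The red curves lie to the left of the others in both panels, with medians of -0.39 and -0.28, and lack the second peak of rising regions seen for all tested regions in WT.

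The largest falls were at regions of named genes. OCR_23483, 0.122 kb upstream of the start site of Scin, an actin-severing protein (chr12:40860937-40861618), had 9.62, 13.6 and 15.6 CPM in WT ex vivo and 4.46, 4.93 and 5.61 CPM after stimulation. In Ikzf1-cko it had 27.7, 27.6 and 25.3 and then 7.05, 11.9 and 10.2 CPM. Its log2 fold change averaged over genotypes was -1.44 (SE 0.12, adjusted p = 7.3e-11, edgeR). The region inside Il10 (OCR_4959) went from 11.2, 12.5 and 10.8 to 4.96, 5.66 and 3.95 CPM in WT and from 20.6, 23.7 and 20.5 to 7.37, 7.23 and 8.29 CPM in Ikzf1-cko, which is -1.36 on the log2 scale (SE 0.11, adjusted p = 1.6e-11, edgeR). The stimulated Ikzf1-cko libraries overlapped the ex vivo WT libraries at Scin and lay below all of them at Il10. Regions in introns of Nrip1, a nuclear receptor corepressor (log2 fold change -1.30), and Zswim6 (-1.19), and 34.0 kb upstream of the ETS factor gene Elk3 (-1.16), were the next, with adjusted p of 6.1e-12, 1.4e-09 and 2.4e-10 in edgeR's test.

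At FDR alone, of the effector regions described above, those of Bhlhe40 (OCR_95741), Il10 (OCR_4954), Tigit (OCR_45690) and Ahr fell with stimulation, by 0.85, 0.74, 0.71 and 0.73 on the log2 scale, as did that of Bach2 (OCR_77735) by 0.79. At Ahr the fall was 1.13 in WT and 0.33 in Ikzf1-cko, and at Bach2 it was 1.06 and 0.52. The regions of Klrg1 did not pass the test, with averaged log2 fold changes of -0.04 and -0.02 (adjusted p = 0.76 and 0.92, edgeR). Nor did those of Il18rap (0.05, adjusted p = 0.72, edgeR), Maml3 (OCR_71282, -0.07, adjusted p = 0.67) and Rbpj (OCR_86120, -0.15, adjusted p = 0.24). The largest of the 39 rises, named after their values were seen, were at Diap1 (OCR_54709, 0.76), 110 kb from Sp3 (OCR_63586, 0.75) and in an intron of Hbs1l (OCR_9927, 0.66). OCR_54709 had 5.19, 6.76 and 6.28 CPM in ex vivo WT and 10.1, 12.1 and 8.94 CPM in stimulated WT, and 10.4, 10.2 and 7.52 and then 15.3, 16.2 and 16.6 CPM in Ikzf1-cko.

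For AP-1 letters and the Ikaros core, the regions under the rule with and without the motif were close in this change. Of the 239 regions with AP-1 letters 62.8% fell at FDR under 0.05, of those without 57.8%, and the median changes were -0.41 and -0.32. For the Ikaros core the shares were 60.2% and 58.2%. Some other motifs differed more, and in both directions. The shares were 38.2% and 61.2% for KLF/SP letters, 45.3% and 61.4% for STAT letters, and 64.5% and 57.4% for TGGGAA. Among the other regions of at least 10 CPM, the median changes with and without AP-1 letters were further apart, at -0.31 and -0.11. With and without the Ikaros core they were -0.12 and -0.15. Whether AP-1 content bears on the fall was not tested. Over the 77 regions at start sites the median change was -0.18 and 34 fell, whereas in introns it was -0.40 and 211 of 336 fell.

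The remaining gene lists had few of the 718 regions, and their genes are named here after their values were seen. Each count is given with its share of the regions of at least 10 CPM at the listed genes, to be read against 2.73%. Ikaros family genes had 1, in an exon of Ikzf2 (4.00%), and Treg identity genes 3, at Ctla4 and Ikzf2 (4.62%). Follicular genes had the 3 at Pdcd1 (4.84%), AP-1 genes 5 at Atf3, Bach2 and Fosb (6.41%), and NF-kB genes 5 at Nfkbiz, Malt1 and Nfkb1 (5.26%). NFAT, Nr4a and Egr genes had 2 at Nfatc1 and Egr1 (3.23%). TGF-beta genes had 3 at Smad4 and Itgav (3.16%), with 5 of the reversed rule, and homing and chemokine receptor genes had 1 at Itgb1 (1.12%).

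Several facts of the series bear on all these values. Counted reads per library were 4808916 to 8596567 in WT and 9221901 to 15355521 in Ikzf1-cko, with every Ikzf1-cko library larger, so that the median count of the 718 regions was 54 in WT and 193 in Ikzf1-cko libraries. Spearman correlations between replicates were 0.942 to 0.985 within the ex vivo groups and the lowest, 0.867 to 0.896, in stimulated WT. At Treg marker loci, all 8 had a region within 1 kb of the start site, with group means of 10.2 to 63.2 FPKM, the deposited level per length and depth. Loci of B cells (3 of 8 with a region), myeloid cells (3 of 8), CD8 and NK cells (7 of 8) and erythroid cells (5 of 8) had group means of 3.58 to 22.8 FPKM, and none of their genes was nearest to any of the 718 regions. Group medians of the CD8 and NK loci were 8.45 and 9.14 FPKM in WT and 5.37 and 5.81 FPKM in Ikzf1-cko, so that the genotypes differed there in the direction opposite to the 718 regions, and those of B cell loci were 5.04 and 11.2 against 5.86 and 8.39 FPKM. Myeloid loci had 7.12 and 7.20 against 7.69 and 8.70 FPKM, and erythroid loci 9.47 and 9.55 against 7.96 and 8.42 FPKM. The part of other cells in the levels of the 718 regions was not tested. Over Ikzf1, 28 regions were tested and none was among the 718. The sources used here do not give the deleted interval, and these regions do not check the genotype.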

How the data were processed

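ATAC-seq reads of 12 Treg libraries, 3 for each of 4 groups, were aligned by the authors with Bowtie2 and de-duplicated, and narrow peaks were called with MACS2 and merged into a single reference set of open chromatin regions. The submitters' processing notes name mm9, bcl2fastq, Bowtie2 and MACS2, whereas the methods print a human build for the alignment. The coordinates lay within the chromosomes of mm9 (NCBIM37), apart from 1 region at the end of a chromosome. The deposited count of each region is the number of de-duplicated reads per library, not normalized, and the deposited FPKM is that count per kb of region and library size, computed by the authors. FPKM served only for marker loci. A second deposited table holds the authors' own fold changes, F statistics, p-values and FDR, and was not used. No column of per-sample values was left unmapped, and 200 regions without counts lay outside the reference chromosomes.

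The 718 regions and all gene lists were chosen with earlier results of these data known. Regions were annotated to the nearest protein-coding start site of NCBIM37, with start site meaning within 1 kb, and compared with the mitochondrial genome by blastn 2.17.0. Motifs were counted in the central 300 bases. The 69957 regions with 3 or more libraries at 3.6 CPM or above were fitted in edgeR 4.0.16 (R 4.3.3) with library totals as scaling. A simulation of 200 changed regions among the 69957 at a log2 fold change of 2 recovered 200, 200 and 196 of them for stimulation averaged over both genotypes, in Ikzf1-cko and in WT. Named regions were the 6 with the largest smaller ratio, the 5 with the highest CPM, those at the thresholds, the 5 largest falls with stimulation, the 3 largest and 3 smallest differences between states, up to 6 at start sites by CPM, all runs of at least 3 and up to 25 at listed genes. Some of these regions are not reported here. Alternatives were TMM and DESeq2 1.42.0 scaling and testing, loess offsets (limma 3.58.1), other filters and thresholds, single libraries left out and a replicate block. Thinned counts and a GC correction were added after the data were seen.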

Additional observations from a re-analysis of the deposited data

How the results depend on the processing

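The number of regions under the rule depended on its thresholds and on scaling. It was 1245 with TMM scaling and 1183 with DESeq2 size factors, each with all 718 regions among them, 323 at a level of at least 20 CPM, 1917 at a fold of 1.3 and 84 at a fold of 2. Loess offsets gave 620, of which 534 were among the 718, counts thinned to the smallest library 728 (595 among them) and a loess correction for GC content 700 (603 among them). Leaving out 1 library gave 660 to 913. TMM moved the ex vivo median log2 ratio of all tested regions from -0.14 to -0.02 and that of the 718 regions from 0.79 to 0.91. No ratio of the 50 named regions changed its sign under these scalings. The rule had chosen these regions by a minimum ratio with libraries apart in both states, so that their signs were largely set by it. The kept signs are therefore no test of the scaling. Of the 100 values compared, 15 moved beyond their spread with loess offsets and 9 with the GC correction. The number was 4 with TMM, 2 with DESeq2 size factors and 3 with thinned counts. Called changes with stimulation numbered 17 averaged over genotypes, 15 in Ikzf1-cko and 42 in WT. Without a fold threshold they numbered 466, 373 and 356. With loess offsets they numbered 6, 11 and 10, and this alternative fits each library to the same median at each abundance. Leaving out 1 library gave 14 to 21, 12 to 19 and 35 to 52. With the replicate number as a replicate block they numbered 16, 15 and 45. Same-numbered ex vivo and stimulated libraries had correlations of 0.211, 0.00295 and -0.0275 in WT and -0.334, 0.0722 and -0.357 in Ikzf1-cko, so that the numbers were not treated as pairs. Not every library correlated best with its own number. Counts were low in WT, with a median of 54 reads on the 718 regions, which limits the precision of single regions there.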
